A study of Mus musculus with 6 samples.

Results

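Genes of microglia and of border macrophages were followed in RNA from astrocytes sorted from the brains of mice given streptozotocin (STZ) or vehicle. The 34 genes were taken by symbol from a table of 45777 genes, and all 34 had a read count above 0 in each of the 6 samples. They fall into 11 genes of homeostatic microglia, 8 genes that microglia share with other myeloid cells, 8 genes of activated microglia and 7 genes of border macrophages. Every sample came from Aldh1l1 cre/ERT2; tdTomato fl/fl mice on a C57BL/6 background, listed as genotype WT in the labels, in which tamoxifen given on 5 days activates a Cre recombinase driven by the promoter of the astrocyte gene Aldh1l1, which lets the Rosa26 reporter allele (Ai14) make tdTomato. At 8 weeks of age, 1 week after tamoxifen, male mice were injected once with STZ, which destroys the beta cells of the pancreas, or with vehicle (sodium citrate buffer), and the labels call the groups hyperglycemic and normoglycemic. TdTomato+ cells were sorted after enzymatic dissociation and removal of debris and red blood cells, the methods naming no depletion of CD45+ cells, and each of the 3 samples per group was a pool of 3 brains, so that p-values here measure the spread between such pools.

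Microglia are the resident macrophages of the brain tissue. They depend on signals through the receptor CSF1R, carry receptors such as P2RY12 and CX3CR1 that read nucleotides and the neuronal chemokine fractalkine, and exchange many of these homeostatic genes for an activated set, in part through the TREM2-TYROBP receptor pair, around plaques, debris and injury. Border macrophages sit around vessels, in the meninges and in the choroid plexus, and are known by scavenger receptors such as MRC1 (CD206) and CD163. The transcription factor PU.1, the product of Spi1, binds purine-rich sites with the core GAGGAA and is needed for all of these cells.

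The windows of 250 bases before the start site are shown for 4 members as examples that hold the PU.1 core letters, from RefSeq on GRCm38.p6 (the assembly behind mm10), written 5′ to 3′ on the strand of the gene, with the letters GAGGAA or their reverse complement TTCCTC in capitals. P2ry13 (minus strand, chr3:59210883-59211132) is a homeostatic gene, Trem2 (plus strand, chr17:48346151-48346400) a shared myeloid gene, and Mrc1 (plus strand, chr2:14229164-14229413) and F13a1 (minus strand, chr13:37050245-37050494, the first of 2 listed starts) are border macrophage genes whose levels are set against each other below.
P2ry13: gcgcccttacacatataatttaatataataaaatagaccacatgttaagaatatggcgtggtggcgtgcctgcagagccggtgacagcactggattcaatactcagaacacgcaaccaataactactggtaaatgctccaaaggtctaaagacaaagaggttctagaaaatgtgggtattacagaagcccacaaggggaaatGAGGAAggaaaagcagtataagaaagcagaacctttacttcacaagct
Trem2: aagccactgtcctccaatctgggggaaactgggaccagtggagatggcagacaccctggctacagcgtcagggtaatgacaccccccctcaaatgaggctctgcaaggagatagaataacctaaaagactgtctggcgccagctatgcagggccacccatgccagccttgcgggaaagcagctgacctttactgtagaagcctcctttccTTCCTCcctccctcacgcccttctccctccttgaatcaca
Mrc1: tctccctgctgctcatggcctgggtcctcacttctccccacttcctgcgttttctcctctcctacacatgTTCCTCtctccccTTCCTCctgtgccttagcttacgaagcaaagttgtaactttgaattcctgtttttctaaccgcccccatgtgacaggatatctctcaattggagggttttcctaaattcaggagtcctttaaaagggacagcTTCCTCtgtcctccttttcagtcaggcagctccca
F13a1: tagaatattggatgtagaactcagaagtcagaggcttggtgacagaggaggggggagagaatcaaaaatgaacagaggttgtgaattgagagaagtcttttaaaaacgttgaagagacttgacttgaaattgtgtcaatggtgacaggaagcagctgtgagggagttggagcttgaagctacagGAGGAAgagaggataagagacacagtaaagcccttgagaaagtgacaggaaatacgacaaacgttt
Mrc1 had 3 matches and each of the others 1. Promoter windows were found for 27 of the 34 members, those of Selplg, Tyrobp, Lyve1, Spi1, Tmem119, Gpr34 and Csf1r not being in the table. Of the 35 windows of these members 15 (42.9%) held the letters on either strand, beside 7639 of 32851 windows (23.3%) over all genes. The windows of P2ry12, Cx3cr1, Lgals3 and Cd163, among others, held none. A match is a description of the sequence and not a binding site.

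All 34 genes were expressed at a measurable level in cells sorted as astrocytes. Together they took 0.116% to 0.177% of all read counts, and the lowest count of any of them was 25, for Cst7 in STZ sample 3. Total counts per sample were 52529048 to 58749115. The astrocyte list (8 genes, among them Aldh1l1, Slc1a3 and Gja1) summed to 12523 to 15213 TPM (the authors' transcript abundance per length) in the vehicle samples and to 12354 to 13829 TPM in the STZ samples. In the same units the 11 homeostatic microglia genes summed to 645, 407 and 402 TPM in vehicle samples 1 to 3 and to 435, 556 and 406 TPM in STZ samples 1 to 3. The ratio of Cx3cr1 to Aldh1l1 in TPM was 0.134, 0.102 and 0.0917 in the vehicle samples and 0.0921, 0.134 and 0.101 in the STZ samples, nearly the same set of values in both groups. Scaled to library size, however, Aldh1l1 was itself lower in every STZ sample, as were Aqp4 and Slc1a2 of the astrocyte list (beside 9.85% of all genes). The ratio is therefore not set against an unchanged gene. In RNA from a sorted pool, fewer cells of a type and less RNA per cell cannot be told apart.

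Per length, Cd9, a tetraspanin found on many cell types, was the most abundant member, with a mean of 613 TPM over the 6 samples. The lysosomal protease gene Ctss followed with 244 TPM and Tyrobp, the signalling adaptor of TREM2, with 144 TPM. Csf1r (78.8 TPM), Selplg (74.0 TPM), Lgals3 (69.8 TPM) and P2ry12 (69.3 TPM) lay close together, and their ranges over samples overlapped. At the low end were Cst7, a cystatin induced in activated microglia (1.64 TPM), Cd163 (1.58 TPM) and the integrin gene Itgax (1.41 TPM). The median level of the classes went from 38.4 TPM for homeostatic genes and 27.8 TPM for shared myeloid genes to 10.9 TPM for activated genes and 4.26 TPM for border macrophage genes. Reads of neighbouring genes can add to some of these levels, since no source says that strand was used in the counting: Cd9 overlaps Gm26728 and Gm28809, Ctss overlaps Hmgb1-ps5, P2ry12 and P2ry13 overlap Med12l, Gpr34 overlaps Cask, Mrc1 overlaps Mir511, and F13a1 overlaps Gm30240 and Gm30489. Csf1r, Cx3cr1, Siglech, Sall1, Clec7a and Cd163 also overlap predicted genes, and Csf1r overlaps Mir6983.

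**Figure D1:**
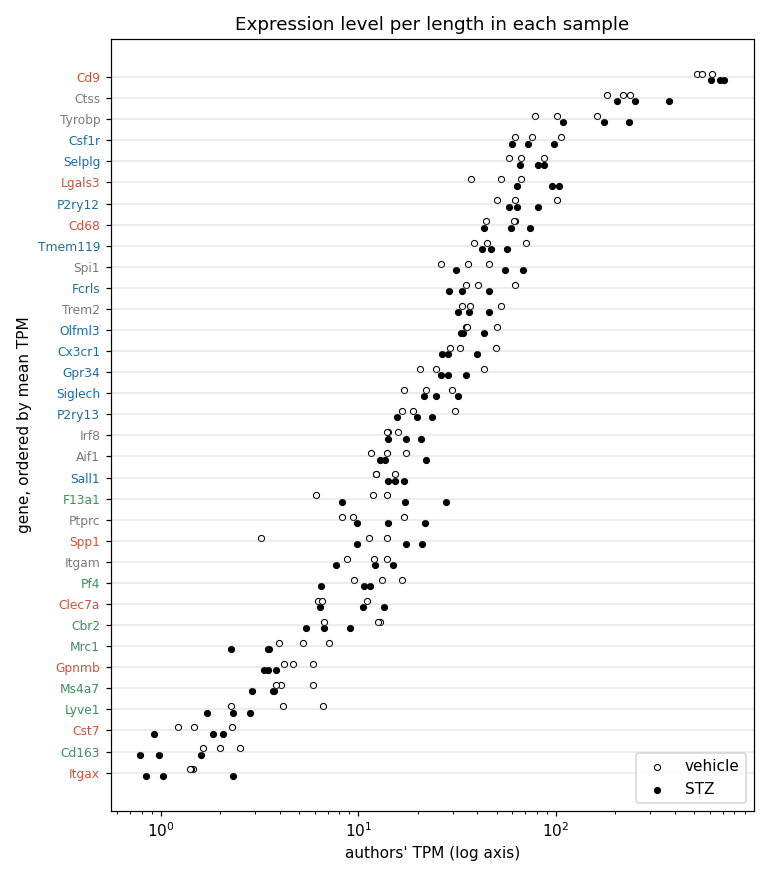
Authors' TPM (log axis) of each of the 34 genes in the 3 vehicle samples (open) and 3 STZ samples (filled), ordered by the mean; gene names are blue for homeostatic, grey for shared myeloid, red for activated and green for border macrophage genes. Cd9 (mean 613 TPM) stands above all others, and the border macrophage genes lie in the lower part, from F13a1 (14.2 TPM) to Cd163 (1.58 TPM).

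No member passed the threshold for the comparison of STZ with vehicle (a fold change above 1.5 and an adjusted p under 0.05 in the edgeR quasi-likelihood fit, with Benjamini-Hochberg adjustment over 22337 genes). Of all genes 0.0224% (5 genes) passed it, 0.00895% higher and 0.0134% lower in STZ samples. The lowest adjusted p of a member was 0.318, for Mrc1. At an unadjusted p under 0.05, 6 of 34 members stood out, beside 11.3% of all genes. Lgals3 and Cd9 were higher (2 members, beside 5.63% of all genes in that direction), and Gpnmb, Mrc1, Cd163 and Lyve1 lower (4 members, beside 5.65%). DESeq2 called 1 member, Mrc1 (adjusted p = 0.0329, lower), beside 1.05% of all genes, 0.654% higher and 0.394% lower. It gave 7 members an unadjusted p under 0.05, beside 10.3% of all genes, 2 of them higher (5.53% of all genes) and 5 lower (4.8%). The values of the groups did not overlap for 4 of 34 members, beside 18.5% of all genes. All 4 were lower in STZ samples (Gpnmb, Mrc1, Cd163 and Ms4a7), the direction of 9.85% of all genes, and none was higher, beside 8.64%. The log2 fold change was positive for 17 members and negative for the other 17, and 48.1% of all genes were negative. Over all genes the median log2 fold change was 0.0121.

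**Figure D2:**
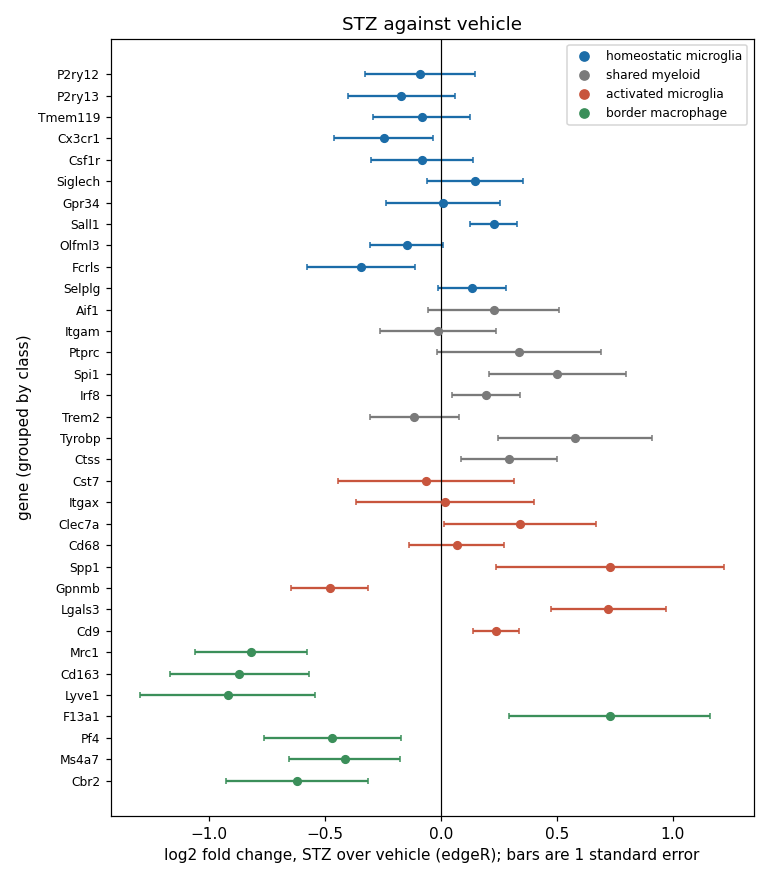
Log2 fold change of STZ over vehicle for each gene, with bars of 1 standard error (edgeR, 3 samples per group); a vertical line marks no difference. The homeostatic genes lie between -0.35 and 0.23, while 6 of 7 border macrophage genes lie below 0 and F13a1 at 0.73.

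The homeostatic microglia genes did not differ between the groups beyond the spread of the samples. None of the 11 had an unadjusted p under 0.05, their lowest adjusted p was 0.462 (edgeR), and their log2 fold changes ran from -0.35 to 0.23 with a median of -0.084 (4 positive, 7 negative). P2ry12, the ADP receptor that guides microglial processes to injury (NCBI gene 70839, chr3:59216271-59262985), measured 115, 72.8 and 60.3 CPM (read counts scaled to library size with TMM) in vehicle samples 1 to 3 and 65.6, 92.5 and 74.4 CPM in STZ samples 1 to 3. The STZ values lay inside the range of the vehicle values. Its log2 fold change was -0.09 (SE 0.236, adjusted p = 0.91). The fractalkine receptor gene Cx3cr1 (chr9:120048683-120068296) had 82.6, 55.4 and 51.5 CPM in vehicle and 47.3, 66.7 and 45.5 CPM in STZ samples, a log2 difference of -0.25 (SE 0.212, adjusted p = 0.684). Tmem119, a microglial membrane protein of little known role, had 68.6, 46.1 and 39.1 CPM against 45.7, 56.9 and 42.5 CPM. In all of these genes vehicle sample 1 was the highest of the 6 samples and STZ sample 2 the next.

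That order recurred across the class. Vehicle sample 1 held the highest value for 8 of the 11 homeostatic genes, and STZ sample 2 for 2 of them. Csf1r, the receptor for the growth factors CSF1 and IL-34, had 183, 112 and 138 CPM in vehicle and 126, 174 and 108 CPM in STZ samples. The purinergic receptor gene P2ry13 had 35.0, 22.1 and 20 CPM against 22.6, 27.3 and 18.6 CPM, and Siglech, a sialic acid-binding lectin, 32.4, 24.5 and 19.1 CPM against 25.8, 34.1 and 24.3 CPM. The lysophosphatidylserine receptor gene Gpr34 (log2 fold change 0.01), the secreted matrix protein gene Olfml3 (-0.15) and Selplg, the ligand of P-selectin (0.13), also overlapped between the groups. Fcrls, an Fc receptor-like gene, had the most negative difference of the class, with 56.0, 32.9 and 38.9 CPM in vehicle and 26.3, 42.4 and 31.8 CPM in STZ samples (log2 fold change -0.35, SE 0.232, adjusted p = 0.598).

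Sall1 stood apart from the other homeostatic genes. It codes for a transcription factor that maintains microglial identity, and its values were 36.9, 31.7 and 31.4 CPM in vehicle and 38.4, 35.9 and 42.9 CPM in STZ samples (log2 fold change 0.23, SE 0.101, adjusted p = 0.462). STZ sample 3, which was lowest for 3 of the 11 genes of the class, was the highest sample for Sall1. The groups overlapped through vehicle sample 1 and STZ sample 2.

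**Figure D3:**
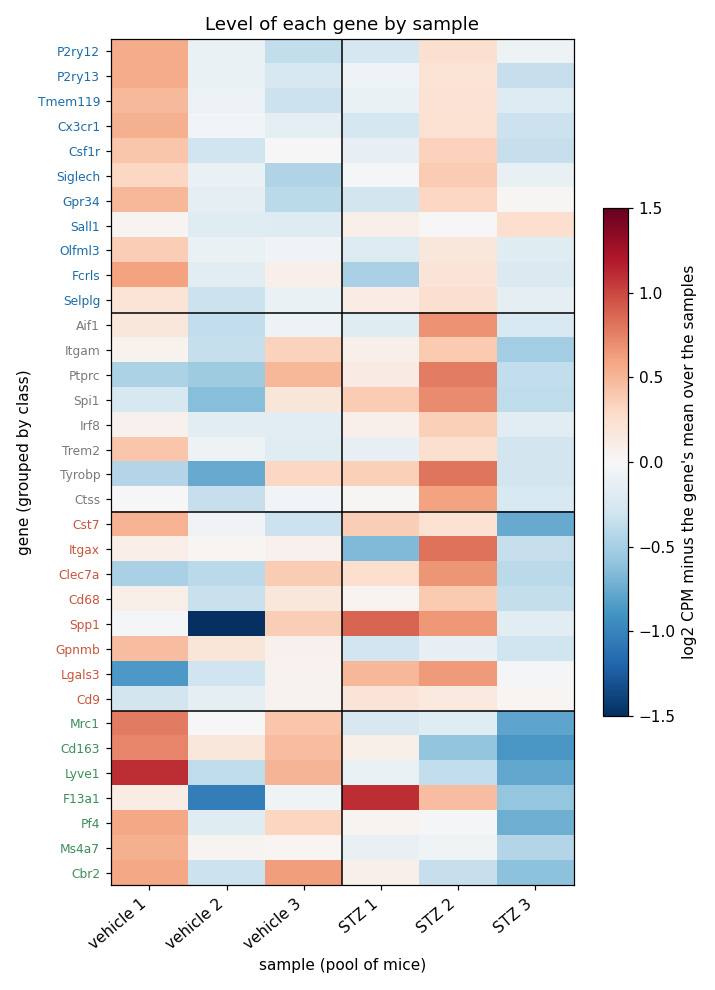
Log2 CPM of each gene in each sample minus the mean of the gene over the 6 samples (red above, blue below the mean), with classes separated by lines and the groups by a vertical line. Vehicle sample 1 is highest for 8 of 11 homeostatic genes, STZ sample 2 for 7 of 8 shared myeloid genes, and STZ sample 3 is lowest for 6 of 7 border macrophage genes.

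The homeostatic genes moved together from sample to sample. When the mean log2 CPM of the homeostatic genes of the same sample (without the gene itself) was subtracted, the SD between samples of a group became smaller for 10 of the 11, and the median SD of the class went from 0.337 to 0.144 on the log2 scale. Cx3cr1 went from 0.337 to 0.0727 and Tmem119 from 0.333 to 0.0929. Sall1 was the exception, with an SD of 0.130 before and 0.306 after. The SD also became smaller for 4 of 8 shared myeloid, 5 of 8 activated and 5 of 7 border macrophage genes. The median SD of these classes went from 0.408 to 0.338, from 0.455 to 0.417 and from 0.401 to 0.431. In TPM, the ratio of Cx3cr1 to P2ry12 was 0.488, 0.529 and 0.578 in vehicle and 0.488, 0.494 and 0.418 in STZ samples, so that the ratio differed less between samples than either gene did. After the subtraction Cx3cr1 and Fcrls no longer overlapped between the groups and were lower in each STZ sample, by 0.21 and 0.32 on the log2 scale. On this relative scale 6 of the 34 members did not overlap, all lower (beside 1.92% of all genes), and none was higher (beside 3.44%). The homeostatic genes themselves make the reference. Over all genes the share lower without overlap was 9.85% before the subtraction and 1.92% after it. The SD within groups became smaller for Gpnmb (0.161 to 0.135), Mrc1 (0.362 to 0.256) and Ms4a7 (0.243 to 0.138), but larger for Cd163 (0.395 to 0.431). The share over all genes is thus no like measure for genes that follow the reference, and these counts are a description only.

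Trem2 behaved as one of the homeostatic genes in this respect, although it was listed among the shared myeloid genes. It codes for the lipid and apolipoprotein receptor of microglia (chr17:48346401-48352276), and its values were 26.3, 18.8 and 17.5 CPM in vehicle and 18.1, 23.3 and 16.4 CPM in STZ samples. Its SD within groups went from 0.288 to 0.0618 on subtraction, the smallest value of all 34 genes. The shared myeloid genes Ctss (0.330 to 0.263), Aif1 (0.405 to 0.251) and Irf8 (0.205 to 0.173) also became less spread, to a lesser degree. The TPM ratio of Trem2 to P2ry12 lay between 0.502 and 0.664 in all 6 samples. Its log2 fold change was -0.12 (SE 0.192, adjusted p = 0.852).

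**Figure D4:**
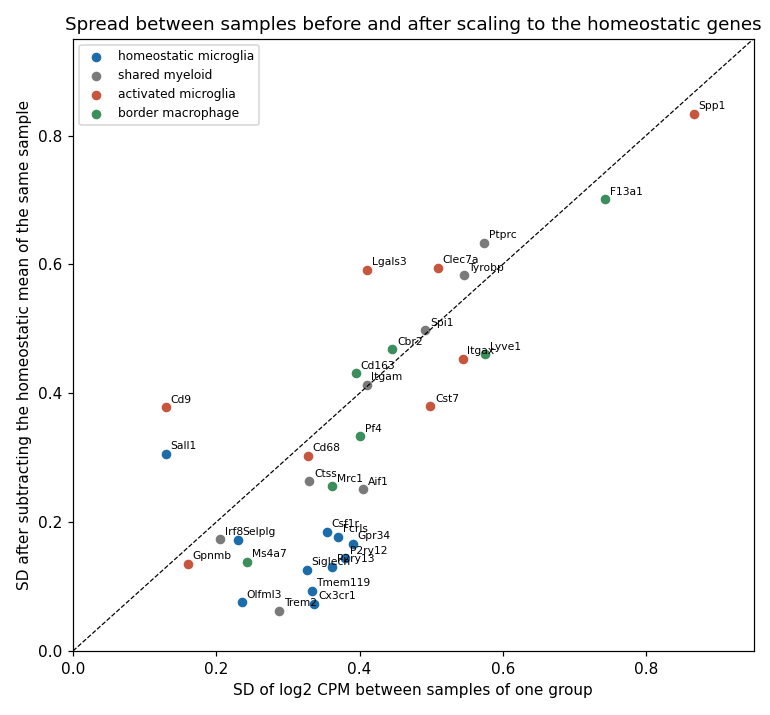
SD of log2 CPM between samples of one group (x axis) against the SD after the mean of the homeostatic genes of the same sample was subtracted (y axis), with the line of equal SD dashed. Of the 11 homeostatic genes 10 lie below the line, Trem2 is lowest at 0.0618, and Sall1, Cd9 and Lgals3 lie above it.

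The other shared myeloid genes, which neutrophils, monocytes and other blood leukocytes also express, followed another order of samples, some of them only in part. In Ctss, Aif1 and Irf8 vehicle sample 1 (143, 7.35 and 22.0 CPM) lay above vehicle samples 2 and 3, as in the homeostatic genes. For 7 of the 8 genes of the class STZ sample 2 was highest, and for 5 of them vehicle sample 2 was lowest. Tyrobp (chr7:30413782-30417582) had 26.1, 21.0 and 44.1 CPM in vehicle and 45.3, 62.0 and 29.3 CPM in STZ samples. Ptprc, which codes for the leukocyte phosphatase CD45, had 21.2, 20.3 and 41.6 CPM against 32.1, 50.1 and 22.8 CPM. Spi1, which codes for PU.1, had 23.5, 17.9 and 31.5 CPM against 36.3, 45.5 and 21.3 CPM. In each of these genes vehicle sample 3 lay with STZ samples 1 and 2, and STZ sample 3 with vehicle samples 1 and 2, so the groups overlapped.

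None of the 8 shared myeloid genes reached an unadjusted p under 0.05. The largest differences were those of Tyrobp (log2 fold change 0.58, SE 0.332, adjusted p = 0.544) and Spi1 (0.50, SE 0.296, adjusted p = 0.552), and the median of the class was 0.26. Ctss had 143, 113 and 139 CPM in vehicle and 145, 217 and 122 CPM in STZ samples, and the transcription factor gene Irf8 22.0, 18.8 and 18.8 CPM against 22.3, 27.0 and 18.8 CPM. For Aif1, the gene of the microglial stain IBA1, the values were 7.35, 5.03 and 6.20 CPM and 5.75, 10.4 and 5.58 CPM. STZ sample 2 again held the highest value of these 3 genes. Itgam, which codes for CD11b, had a log2 fold change of -0.01 (SE 0.251).

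The ratio of the 2 partners TYROBP and TREM2 differed between samples. In TPM it was 1.92, 2.15 and 4.84 in vehicle samples 1 to 3 and 4.82, 5.12 and 3.44 in STZ samples 1 to 3, with means of 2.97 ± 1.62 (SD, n = 3) and 4.46 ± 0.899 (SD, n = 3). Vehicle samples 1 and 2 were lower than all other samples. A list of blood leukocyte markers, of which 16 of 18 were tested, moved with this ratio: it summed to 413 and 424 TPM in vehicle samples 1 and 2, to 2230 TPM in vehicle sample 3, and to 3370, 3360 and 1480 TPM in STZ samples 1 to 3. The neutrophil genes S100a8 (24.9, 28.7 and 170 CPM in vehicle, 220, 244 and 111 CPM in STZ samples) and S100a9 held the highest levels of that list. At an unadjusted p under 0.05, 5 genes of the list were higher (beside 5.63% of all genes) and 4 lower (beside 5.65%). Of its untested T cell markers, Cd3e had 0 counts in STZ sample 1 and Cd4 in STZ sample 3, with at most 47 counts elsewhere. The part of leukocyte RNA in the levels of the shared myeloid genes was not tested.

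**Figure D5:**
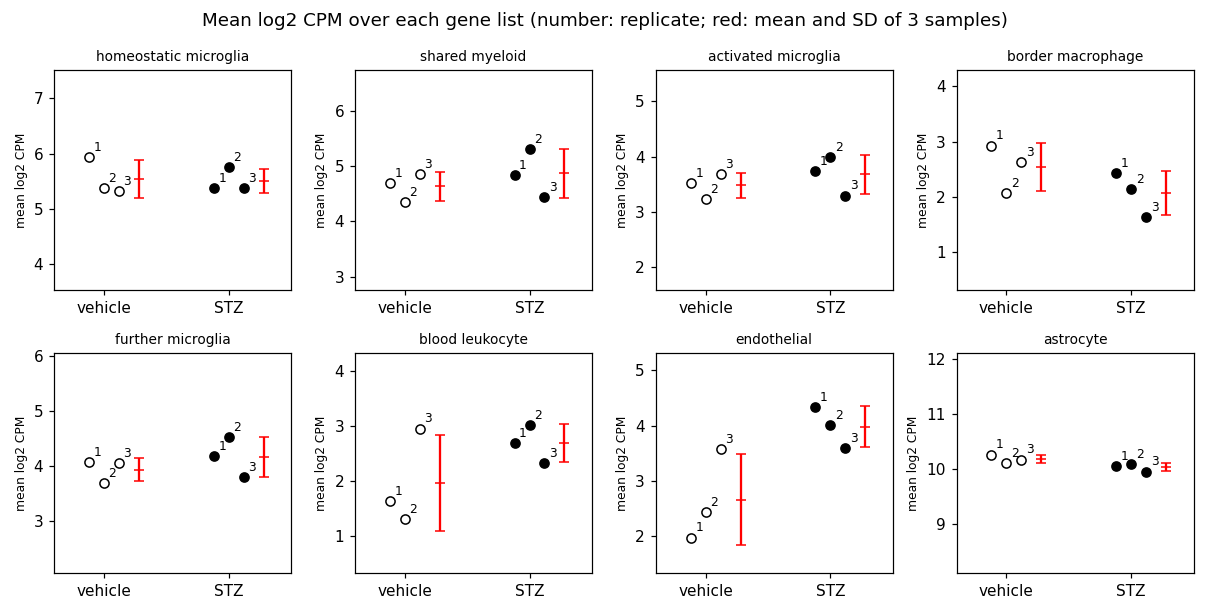
Mean log2 CPM of 8 gene lists in each sample (vehicle open, STZ filled, replicate number beside the point), with the mean and SD of the 3 samples of a group in red; all panels span the same log2 range. The homeostatic list peaks in vehicle sample 1, the blood leukocyte list is low in vehicle samples 1 and 2 only, and the astrocyte list varies least.

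Among the 8 genes of activated microglia, 2 were higher (beside 5.63% of all genes) and 1 lower (beside 5.65%) in STZ samples at an unadjusted p under 0.05, none after adjustment. Lgals3, which codes for the sugar-binding protein galectin-3 (chr14:47373860-47386167), had 23.3, 34.4 and 44.0 CPM in vehicle (33.9 ± 10.4, SD, n = 3) and 60.1, 66.0 and 41.6 CPM in STZ samples (55.9 ± 12.7, SD, n = 3). The groups overlapped through vehicle sample 3 and STZ sample 3. The difference was 0.72 on the log2 scale (SE 0.248, unadjusted p = 0.0211, adjusted p = 0.368 in edgeR and 0.0691 in DESeq2), and with 1 sample left out the unadjusted p reached 0.0723.

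Cd9 (chr6:125460266-125494760) had 277, 306 and 347 CPM in vehicle and 383, 370 and 342 CPM in STZ samples, a log2 difference of 0.24 (SE 0.0997, unadjusted p = 0.0477, adjusted p = 0.439 in edgeR), and an unadjusted p of up to 0.13 with 1 sample left out. Vehicle sample 3 was above STZ sample 3. Neither Lgals3 nor Cd9 followed the homeostatic genes, and their SD within groups was larger after subtraction, from 0.411 to 0.592 and from 0.130 to 0.378.

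Gpnmb went the other way. This gene of a lysosome-associated glycoprotein (chr6:49036518-49058182) had 10.0, 8.21 and 7.59 CPM in vehicle (8.61 ± 1.27, SD, n = 3) and 5.95, 6.65 and 5.91 CPM in STZ samples (6.17 ± 0.416, SD, n = 3), and all STZ samples lay below all vehicle samples. Its log2 fold change was -0.48 (SE 0.165, unadjusted p = 0.0206, adjusted p = 0.366 in edgeR and 0.159 in DESeq2), with an unadjusted p of up to 0.0643 when 1 sample was left out. Relative to the homeostatic genes it was still lower in every STZ sample.

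The remaining 5 activated genes overlapped between the groups. Spp1, the gene of the secreted phosphoprotein osteopontin, varied most of all members, 6.02-fold between its highest and lowest sample, with 7.33, 2.25 and 9.57 CPM in vehicle and 13.6, 11.6 and 6.64 CPM in STZ samples (log2 fold change 0.73, SE 0.493, adjusted p = 0.601). Clec7a, the beta-glucan receptor Dectin-1, had 6.17, 6.57 and 11.3 CPM against 10.3, 13.7 and 6.54 CPM, with STZ sample 2 highest as for Ptprc and Tyrobp but vehicle sample 1 lowest. Itgax, which codes for CD11c, had 2.63, 2.51 and 2.58 CPM in vehicle but 1.55, 4.33 and 1.94 CPM in STZ samples. Its group means were thus almost equal (log2 fold change 0.02), while the STZ samples spread on both sides of the vehicle samples. Cst7 lay between 0.426 and 1.03 CPM, and the lysosomal gene Cd68 between 25.2 and 42.4 CPM. The median log2 fold change of the class was 0.15.

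The border macrophage genes were the class with the most negative differences: 6 of 7 were lower in STZ samples, with a class median of -0.62 on the log2 scale, and F13a1 alone was higher. Of the class, 3 genes had an unadjusted p under 0.05, all lower (beside 5.65% of all genes), and 3 did not overlap between the groups, likewise lower (beside 9.85% of all genes). Mrc1, which codes for the mannose receptor CD206 (NCBI gene 17533, chr2:14229414-14332023), had 16.8, 9.85 and 13.1 CPM in vehicle (13.3 ± 3.50, SD, n = 3) and 8.31, 8.61 and 5.65 CPM in STZ samples (7.52 ± 1.63, SD, n = 3). All STZ samples lay below all vehicle samples, vehicle sample 2 being the nearest. The log2 fold change was -0.82 (SE 0.242, unadjusted p = 0.0105, adjusted p = 0.318 in edgeR), a level 1.76-fold lower, and with any 1 sample left out the unadjusted p was at most 0.0326.

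Cd163, the scavenger receptor for haemoglobin bound to haptoglobin (chr6:124304636-124330529), had 5.0, 3.41 and 4.17 CPM in vehicle and 3.22, 2.01 and 1.65 CPM in STZ samples. The groups were separated by a small gap between vehicle sample 2 and STZ sample 1, and the log2 fold change was -0.87 (SE 0.299, unadjusted p = 0.0209, adjusted p = 0.367 in edgeR), the unadjusted p reaching 0.0675 with 1 sample left out. Lyve1, which codes for a hyaluronan receptor (chr7:110850607-110862953) that lymphatic vessels also express, had 7.70, 2.76 and 5.11 CPM against 3.35, 2.78 and 2.09 CPM. Vehicle sample 2 lay within the STZ samples, and its log2 fold change was -0.92 (SE 0.379, unadjusted p = 0.0428, adjusted p = 0.428 in edgeR). With 1 sample left out the difference was as small as -0.53 and the unadjusted p as high as 0.16.

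The other lower genes of the class were smaller in difference. Ms4a7, a membrane-spanning gene of macrophages, did not overlap between the groups, with 3.52, 2.52 and 2.5 CPM in vehicle and 2.26, 2.34 and 1.80 CPM in STZ samples (log2 fold change -0.42, SE 0.238, adjusted p = 0.544). Pf4, a chemokine that megakaryocytes also make, had 4.38, 2.60 and 3.67 CPM against 3.03, 2.89 and 1.77 CPM. The carbonyl reductase gene Cbr2 had 5.89, 3.16 and 6.11 CPM against 4.16, 3.11 and 2.59 CPM (log2 fold change -0.62, SE 0.308, adjusted p = 0.494). Vehicle sample 1 was highest for 5 of the 7 border macrophage genes, and STZ sample 3 was lowest for 6. Relative to the homeostatic genes of the same sample, Mrc1, Cd163 and Ms4a7 still did not overlap between the groups, and the median difference of the class was -0.54.

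F13a1 was the single gene of the class with a positive difference. It codes for the A subunit of coagulation factor XIII, which monocytes and platelets carry as well as border macrophages, and lies at chr13:36867178-37050244. Its values were 24.2, 10.9 and 21.6 CPM in vehicle and 48.3, 30.8 and 15 CPM in STZ samples, so the groups overlapped, with STZ sample 3 below vehicle samples 1 and 3. The log2 fold change was 0.73 (SE 0.433, unadjusted p = 0.134, adjusted p = 0.557 in edgeR). The TPM ratio of F13a1 to Mrc1, by contrast, was 1.97, 1.52 and 2.26 in vehicle and 8, 4.9 and 3.65 in STZ samples, with every STZ sample above every vehicle sample, whereas the ratio of Cd163 to Mrc1 was 0.383 ± 0.0281 (SD, n = 3) in vehicle and 0.361 ± 0.0928 (SD, n = 3) in STZ samples. Mrc1 was itself lower in every STZ sample, so the separation of the F13a1 ratio in part restates the Mrc1 difference. The monocyte genes Ccr2, Ly6c2, Plac8 and Chil3, grouped after their values were seen, summed to 64.8, 41.3 and 151 TPM in vehicle and to 595, 400 and 170 TPM in STZ samples. In this sum STZ sample 1 was highest, as it was for F13a1. Among vehicle samples the sum was highest in sample 3, but F13a1 in sample 1. By mean log2 CPM the monocyte genes were highest in STZ sample 2 (5.38) and not in STZ sample 1 (5.21). The part of monocyte RNA in the F13a1 values was not tested.

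Further genes listed for the same cells were counted from 4 lists, although other cells may express them too. Of 40 further microglia genes 32 had a positive log2 fold change (median 0.23), while 48.1% of all genes were negative. At an unadjusted p under 0.05, 3 were higher (among them Hpgd and Runx1, beside 5.63% of all genes) and 2 lower (Itgb5 and Vsir, beside 5.65%). DESeq2 called Hpgd, a prostaglandin-degrading enzyme (adjusted p = 0.0221, beside 0.654% of all genes called higher). Hpgd had 16.2, 11.8 and 10.4 CPM in vehicle and 18.3, 25.9 and 20.5 CPM in STZ samples. Of 20 further activated genes 13 were positive (median 0.31). At an unadjusted p under 0.05, 4 were higher (Ccl3, Ch25h, Cd52 and Tnf, beside 5.63% of all genes) and 2 lower (beside 5.65%). The lower ones were the phagocytic receptor gene Axl, with 211, 172 and 174 CPM in vehicle and 160, 158 and 140 CPM in STZ samples (log2 fold change -0.29, adjusted p = 0.383 in edgeR), and the lysosomal protease gene Ctsd (-0.23, adjusted p = 0.441). In microglia sorted from Tmem119-EGFP mice, the paper reports higher Axl mRNA after STZ by quantitative PCR. The Axl values here are from tdTomato+ cells and do not measure that. Axl and Ctsd, like Ctsb, were lower in every STZ sample (beside 9.85% of all genes). Ctsd (1570 to 2010 CPM) and Ctsb (1250 to 1500 CPM) lay above every homeostatic gene. These lower genes did not follow the homeostatic genes. Their SD within groups grew on subtraction, from 0.138 to 0.190 for Axl, 0.0939 to 0.370 for Ctsd, 0.0639 to 0.281 for Ctsb and 0.0710 to 0.228 for Itgb5. The cells that these values came from were not tested. DESeq2 called the cytokine gene Tnf (adjusted p = 0.000866), with 0.765, 0.424 and 0.873 CPM against 2.59, 3.45 and 1.60 CPM. For both Hpgd and Tnf all STZ samples lay above all vehicle samples (beside 8.64% of all genes). In edgeR their adjusted p-values were 0.298 and 0.218.

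Of 14 further border macrophage genes 9 were positive (median 0.17), so this longer list was not lower as a whole. Among the positive genes were Ccl8 (log2 fold change 2.03), Siglec1 (0.53), Tgfbi (0.49), Cd209a (0.46) and Mgl2 (0.22), and 5 genes were negative. The cell source of these genes was not tested. Over the 21 genes of both border lists 10 were positive and 11 negative. Cd209f, a C-type lectin of border macrophages, had the most negative value, with 2.89, 1.75 and 2.32 CPM in vehicle and 0.709, 0.670 and 0.630 CPM in STZ samples, well apart. Its log2 fold change was -1.79 (SE 0.27, unadjusted p = 0.000211), and the adjusted p was 0.157 in edgeR and 4.27e-05 in DESeq2. Cd209f was lower even against Mrc1, with a TPM ratio of 0.721, 0.774 and 0.690 in vehicle and 0.343, 0.306 and 0.467 in STZ samples.

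The signals that microglia receive from neighbouring cells were examined with 12 ligands and partners, none of which had an unadjusted p under 0.05 in edgeR (median log2 fold change 0.029, 6 positive and 6 negative). Csf1, a growth factor for CSF1R, had 45.9, 36.9 and 39.8 CPM in vehicle and 42.8, 37.6 and 28.5 CPM in STZ samples, and the other CSF1R ligand gene Il34 1.03, 2.29 and 2.13 CPM against 2.69, 2.80 and 2.25 CPM. Cx3cl1, which codes for fractalkine, had a log2 fold change of -0.06, as did Tgfb2, and Tgfb1 one of 0.15. Cd200, an inhibitory ligand for myeloid cells, had 5.84, 6.09 and 9.67 CPM against 13.5, 10.2 and 8.43 CPM (log2 fold change 0.57, SE 0.257, adjusted p = 0.462), and its receptor gene Cd200r1 a log2 fold change of 0.60 (SE 0.367, adjusted p = 0.564). The values of both overlapped between the groups. Apoe, a ligand of TREM2 and a major product of astrocytes, was at 34347 TPM with a log2 fold change of -0.02, and Cd47, Sirpa, Syk and Entpd1 lay between -0.14 and 0.17.

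Markers of other cells differed between the samples as well. All 10 endothelial genes had a positive log2 fold change (median 1.18), while 48.1% of all genes were negative. Of the 10, 8 had an unadjusted p under 0.05 in edgeR (beside 5.63% of all genes in that direction). The 10 genes summed to 73.5 to 250 TPM in vehicle and 260 to 492 TPM in STZ samples. Of 8 pericyte and smooth muscle genes, 4 (Rgs5, Acta2, Myh11 and Tagln) were higher at an unadjusted p under 0.05 (beside 5.63% of all genes). The choroid plexus and ependymal list, which marks one of the seats of border macrophages, summed to 10500, 28400 and 29700 TPM in vehicle and to 19900, 16000 and 26800 TPM in STZ samples, lowest in vehicle sample 1, where 5 of the 7 border genes were highest. Whether the share of vessel or choroid plexus material in a sample bears on the border macrophage values was not tested.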

How the data were processed

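RNA from tdTomato+ cells was sequenced by the study for 3 vehicle and 3 STZ samples, grouped by the treatment in the labels. The authors deposited raw read counts of each gene as whole numbers, with FPKM and TPM values that the authors computed (FPKM was not used). The submitters' processing notes name Trimmomatic 0.38, HISAT2 2.1.0, SAMtools 1.9, StringTie 2.1.3b and mm10. The labels give a SMART-Seq mRNA kit, while the methods name a TruSeq kit, and the annotation is not given in the sources used here.

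Genes with a count above 0 in every sample (22337) were fitted with edgeR 4.0.16 (TMM, two-sided quasi-likelihood test with group as the single term) in R 4.3.3. Calls needed a fold change above 1.5 at an adjusted p under 0.05. CPM values use TMM library sizes, and log2 CPM a prior count of 2. Relative levels subtract the mean log2 CPM of the other homeostatic genes of the sample. Gene positions come from RefSeq on GRCm38.p6, matched by NCBI gene number for all 34 members. Alternatives were DESeq2 1.42.0, edgeR with size factors of DESeq2, a fit without the low-count filter, the replicate number as a block and leaving out each sample. The fits were tested on simulated data. The members and lists were chosen with earlier results of these data known, so counts over them are descriptions. All members were named. From the other lists the rule allowed naming all ligands and partners and any gene called by edgeR or DESeq2. It also allowed at most 4 more by p in a pathway list and at most 3 of the most abundant in a marker list. Not every gene so allowed was named. Ccr2, Ly6c2, Plac8, Cd3e, Cd4, Cd209a, Mgl2, Ccl8 and other genes outside this rule were named after their values were seen, and some genes of the lists are not reported here. Total counts were 52529048 to 58749115, and 3 counts correspond to 0.0511 to 0.0571 CPM. Counting error is larger for genes with few counts, such as Cst7 (25 to 56 counts) and Cd209f in STZ samples (37 to 43 counts). Each pair of samples within a group differed beyond sampling noise, with a chi-square of at least 17.2 per gene, so each was counted as 1 sample.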

Additional observations from a re-analysis of the deposited data

How the results depend on the processing

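Both counts of members depended on a setting. The number of members called was 0 in edgeR and 1 (Mrc1) in DESeq2, and 0 under each of the other alternatives. The number at an unadjusted p under 0.05 was 6, and 3 with the replicate number as a block (Lgals3, Mrc1 and Cd163). With each sample left out in turn it ranged from 2 to 7, with 3 without vehicle sample 1, 2 without STZ sample 1 and 3 without STZ sample 2. Same-numbered samples did not deviate together (correlations of -0.101, -0.162 and -0.184). The deviations are taken from group means of 3 samples, which ties these values to those of the other pairs. They cannot decide whether the numbers pair the samples. The block changed no other call.

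The direction held under all 10 alternatives for 20 of the 34 members, among them the 7 border macrophage genes, Lgals3, Cd9, Gpnmb, Tyrobp and Spi1. It turned for the other 14. Gpr34 was at -0.0022 with no filter on low counts, and Itgax at -0.126 with the replicate block. On leaving out each sample in turn, the log2 fold change ran from -0.29 to 0.22 for P2ry12, from -0.34 to 0.11 for P2ry13, from -0.26 to 0.18 for Tmem119, from -0.30 to 0.12 for Csf1r, from -0.0358 to 0.36 for Siglech, from -0.19 to 0.31 for Gpr34 and from -0.28 to 0.0131 for Olfml3. It ran from -0.13 to 0.38 for Aif1, from -0.24 to 0.20 for Itgam, from -0.0117 to 0.74 for Ptprc, from -0.27 to 0.0817 for Trem2, from -0.27 to 0.21 for Cst7, from -0.56 to 0.28 for Itgax and from -0.13 to 0.24 for Cd68. The class medians ran from -0.24 to 0.18 for homeostatic genes (positive without vehicle sample 1 and, at 0.0024, without STZ sample 3), from 0.003 to 0.42 for shared myeloid genes, from -0.03 to 0.26 for activated genes (negative without STZ sample 2) and from -0.88 to -0.48 for border macrophage genes. The causes were not tested.

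With 3 pools per group, differences of the size of those of the homeostatic genes could not be told from the spread between pools. Intervals from counting cover counting error only.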

Other observations

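Cd79a of the blood leukocyte list, which codes for a part of the B cell receptor, went opposite to the neutrophil and monocyte markers of that list. It had 1.88, 1.02 and 3.32 CPM in vehicle and 0.412, 0.498 and 0.817 CPM in STZ samples (log2 fold change -1.85, SE 0.481, adjusted p = 0.289 in edgeR and 0.0133 in DESeq2), and all STZ samples lay below all vehicle samples.

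The mast cell protease genes Cma1 and Cpa3 had the opposite direction. Cma1 measured 0.765, 1.64 and 2.85 CPM in vehicle and 20.7, 21.4 and 9.02 CPM in STZ samples, and Cpa3 1.75, 1.66 and 3.21 CPM against 22.1, 22.8 and 7.88 CPM. Their adjusted p-values were 0.163 for both in edgeR, and 6.45e-05 and 2.68e-05 in DESeq2. Both genes had their lowest STZ value in STZ sample 3, where the blood leukocyte list was also lowest among STZ samples. Cma1 and Cpa3 belong to that list, so its values are not independent of theirs.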
